A study of Homo sapiens with 4 samples.

Results

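The genes described here are 8 members of the fibroblast growth factor (FGF) system in human retinal pigment epithelial cells depleted of topoisomerase 2 beta (TOP2B): the ligands FGF1, FGF2 and FGF5, the receptors FGFR1, FGFR3, FGFR4 and FGFRL1, and NUDT6, the gene transcribed from the strand opposite FGF2. They were chosen by name from 60725 genes in the count table, with earlier results of these data known. Of the 8 genes, 6 had enough reads to be tested and 2, FGFR3 and FGFR4, did not. RNA was sequenced from hTERT-RPE1 cells, an established line immortalized with telomerase, that carry the SunTag system. The control group received 10 nM of Silencer Select Negative Control No. 2 siRNA and the TOP2B knockdown group received 10 nM of the Dharmacon ON-TARGETplus SMARTpool against TOP2B. Both groups were transfected again after 48 h and harvested 72 h later, on day 5, and each held 2 libraries that the study describes as biological replicates. The groups therefore differed in the supplier of the siRNA as well as in its target, and effects of the reagent and of TOP2B loss cannot be told apart by this design.

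FGF ligands bind receptor tyrosine kinases at the cell surface together with heparan sulfate, and the bound receptor recruits adaptors that switch on the MAPK pathway. FGF1 and FGF2 lack a classical signal peptide and leave the cell by an unconventional route, while FGF5 is secreted in the usual way. FGFRL1 binds FGFs but lacks the tyrosine kinase domain, and NUDT6, also known as the FGF2 antisense gene, encodes a Nudix hydrolase.

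The libraries held 23887013 and 22879653 counts in control and 21117131 and 20310259 in TOP2B knockdown, so that 1 CPM (read counts scaled to a common library size by the TMM method) rested on 20.2 to 23.9 reads. TOP2B itself stood at 154.9 and 143.5 CPM in control and at 15.3 and 13.3 CPM in TOP2B knockdown. Of 8 markers of retinal pigment epithelium, 4 had at most 3 reads in every library, with RPE65, TTR and TYR at 0, whereas MITF and OTX2 were expressed. The summed level of these 8 markers was 50.4 to 51.9 CPM in control and 58.2 to 59.5 CPM in TOP2B knockdown. The 4 epithelial markers, which are KRT8 and KRT18 in substance since EPCAM was at 0 and CDH1 had at most 2 reads, summed to 1457.1 to 1772.0 CPM in control and 1119.9 to 1402.9 CPM in TOP2B knockdown. The 4 mesenchymal markers summed to 1408.0 to 1462.9 CPM and 1406.2 to 1444.4 CPM, a sum dominated by VIM, while PDGFRB stood at 173.9 and 137.1 CPM in control and 113.4 and 115.0 CPM in TOP2B knockdown (log2(fold change) -0.44, adjusted p = 0.0724). Their part in the results on the FGF genes was not tested.

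Across the 8 genes, FGF2 and FGF5 fell in TOP2B knockdown and no gene rose. FGF5 fell to 65.8% and FGF2 to 71.2% of the control level. These 2 calls lower among 6 tested genes stand beside a background of 4.18% of all 15356 genes called lower, and the 0 calls higher beside 6.66% called higher, by edgeR's quasi-likelihood test at an adjusted p below 0.05. DESeq2 also called 0 of the genes higher and 2 lower, with 1562 genes called in either direction over the whole table. At an unadjusted p below 0.05 the edgeR test gave 0 higher and 3 lower, the additional one being FGFRL1. The share of all genes at that unadjusted threshold was not computed, so unadjusted counts here and below have no background beside them. Both TOP2B knockdown libraries lay below both control libraries for 3 genes (FGF2, FGF5 and FGFRL1), as they did for 26.6% of all genes tested, and above them for 1 gene (NUDT6), as they did for 27.7%. The log2(fold change), TOP2B knockdown minus control, was negative for 5 of the 6 genes, with a median of -0.43 against -0.0029 over all genes tested. In bulk RNA, fewer cells that express a gene and less of its RNA in each cell cannot be told apart.

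**Figure D1:**
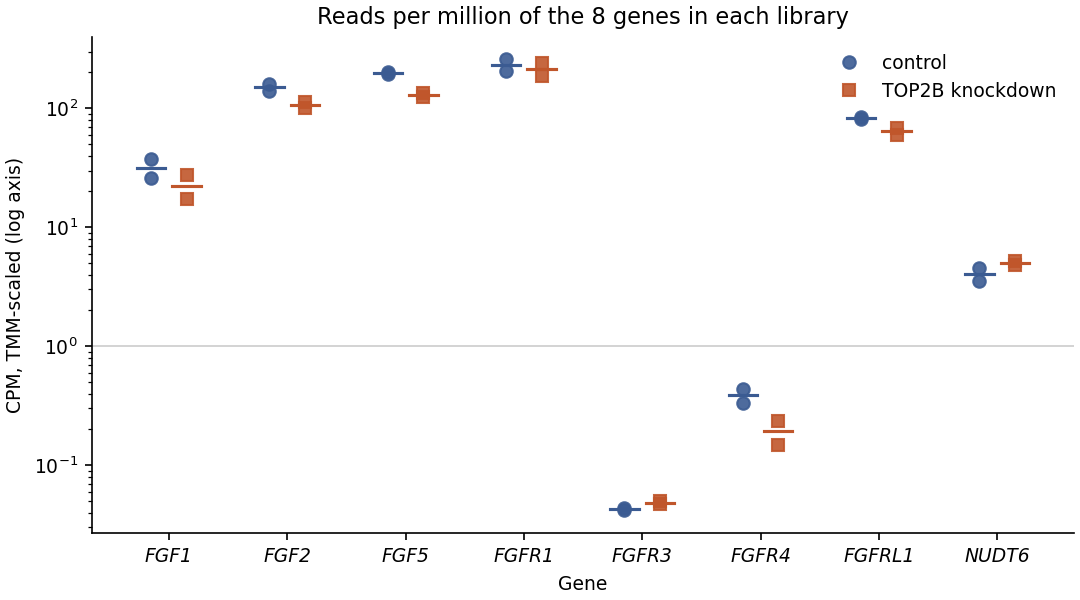
Level of each of the 8 FGF genes in CPM (log axis) in each library; circles are control libraries, squares TOP2B knockdown libraries, and short lines the mean of the 2 libraries of a group. For FGF5, FGF2 and FGFRL1 both squares sit below both circles, for NUDT6 both sit above, and FGFR3 and FGFR4 lie below 1 CPM in every library.

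FGF5 (ENSG00000138675), a secreted ligand known as an inhibitor of hair growth, lies at chr4:80266639-80336680 on the plus strand of GRCh38. It stood at 194.0 and 200.9 CPM in the control libraries and at 135.3 and 124.4 CPM in the TOP2B knockdown libraries. The 2 libraries of either group were close to each other and the groups did not overlap. The mean was 197.4 ± 4.83 CPM in control and 129.8 ± 7.71 CPM in TOP2B knockdown (SD, n = 2 each). The log2(fold change) was -0.60 (SE 0.12, 95% interval -0.88 to -0.33, adjusted p = 0.0138), which places the knockdown level at 54.4% to 79.5% of control. Each of the 4 differences between a TOP2B knockdown and a control library was negative, from -0.69 to -0.52 on the log2 scale. The call was lost when control replicate 2 (adjusted p = 0.0563) or TOP2B knockdown replicate 2 (adjusted p = 0.116) was left out, while the fold change stayed between -0.66 and -0.54.

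FGF2 (ENSG00000138685), a ligand that acts on endothelial, mesenchymal and neural cells, spans chr4:122826682-122898236 on the plus strand. Its level was 139.2 and 161.6 CPM in control and 101.1 and 113.1 CPM in TOP2B knockdown. The higher knockdown library remained below the lower control library. The means were 150.4 ± 15.8 and 107.1 ± 8.48 CPM (SD, n = 2 each), and the log2(fold change) was -0.49 (SE 0.13, 95% interval -0.78 to -0.20, adjusted p = 0.0413). FGF2 passed the threshold by a narrow margin. Leaving out control replicate 2 (adjusted p = 0.297), TOP2B knockdown replicate 1 (0.26) or TOP2B knockdown replicate 2 (0.0724) ended the call, with a log2(fold change) between -0.60 and -0.37 over the 4 fits that leave out 1 library.

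FGF1 (ENSG00000113578), a ligand able to bind all FGF receptors, spans chr5:142592178-142698070 on the minus strand. It measured 25.8 and 37.5 CPM in control and 17.3 and 27.5 CPM in TOP2B knockdown. Replicate 2 was the higher library of either group, and the upper knockdown library exceeded the lower control library, so the groups overlapped. Between libraries of the same replicate number the log2 difference was -0.58 and -0.45, and between the others -1.11 and 0.09. The log2(fold change) was -0.50 (SE 0.23, 95% interval -1.01 to 0.01, adjusted p = 0.196) and FGF1 was not called. This estimate is close in size to that of FGF2, with a wider interval, and the difference between the 2 genes was not tested. The adjusted p fell to 0.00217 without control replicate 1, with a log2(fold change) of -0.75, and to 0.00131 without TOP2B knockdown replicate 2, with -0.87. It was 0.0163 with no filter on counts, and the log2(fold change) was -0.20 without either of the other libraries.

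The 3 ligands together summed to 359.0 and 400.0 CPM in control and to 253.6 and 264.9 CPM in TOP2B knockdown. The corresponding sum of the 4 receptors was 340.3 and 292.1 CPM in control and 311.4 and 248.5 CPM in TOP2B knockdown. The groups did not overlap for the ligands and overlapped for the receptors. FGF1 made up only 6.81% to 10.4% of the ligand reads, so the ligand sum mostly repeats FGF2 and FGF5. The receptor sum was mostly FGFR1, and FGFRL1 alone did not overlap. Of all genes tested, 26.6% had both knockdown libraries below both control libraries. The contrast of the sums is therefore no separate result.

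**Figure D2:**
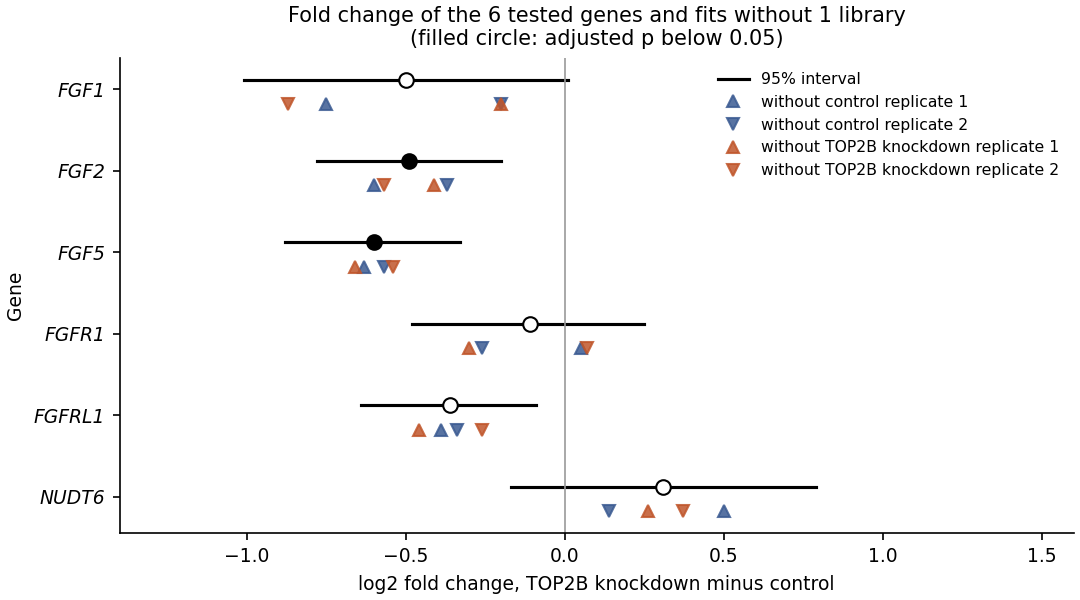
Log2 fold change (TOP2B knockdown minus control) of the 6 tested genes; circles with lines are the estimate and 95% interval from all 4 libraries, filled where the adjusted p was below 0.05, and triangles are the estimates with 1 library left out. FGF2 and FGF5 stay negative in every fit shown, FGF1 runs from -0.87 to -0.20, and FGFR1 crosses 0.

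The sequences before the start sites of the 3 ligands and NUDT6 are shown for their unlike base composition. They come from RefSeq (GRCh38.p14) and hold the bases upstream of the outermost annotated start, 5′ to 3′ on the gene's strand. RefSeq lists 4 starts for FGF1, 2 for FGF5, 2 for NUDT6 and 1 for FGF2, and which of them the cells used was not measured. Capitals mark matches on either strand to the GC box (GGGCGG) or the CCAAT box (CCAAT). FGF1 is shown at chr5:142698071-142698320 (minus strand), FGF5 at chr4:80266338-80266587 (plus strand), NUDT6 at chr4:122922969-122923218 (minus strand), and FGF2 at chr4:122826581-122826681 (plus strand), the 101 bases that lie outside its GENCODE gene model.
FGF1: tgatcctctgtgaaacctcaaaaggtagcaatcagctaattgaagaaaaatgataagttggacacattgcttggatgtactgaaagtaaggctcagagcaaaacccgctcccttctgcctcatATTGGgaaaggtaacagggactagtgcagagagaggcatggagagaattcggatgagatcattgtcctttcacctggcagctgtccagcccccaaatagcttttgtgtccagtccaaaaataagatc
FGF2: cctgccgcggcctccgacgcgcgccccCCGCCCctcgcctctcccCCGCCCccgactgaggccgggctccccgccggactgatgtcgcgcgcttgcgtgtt
FGF5: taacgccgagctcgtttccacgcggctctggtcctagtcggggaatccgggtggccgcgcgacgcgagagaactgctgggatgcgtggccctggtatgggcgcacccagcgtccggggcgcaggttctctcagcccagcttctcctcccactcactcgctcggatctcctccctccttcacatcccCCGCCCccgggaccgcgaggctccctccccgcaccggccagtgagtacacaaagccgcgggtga
NUDT6: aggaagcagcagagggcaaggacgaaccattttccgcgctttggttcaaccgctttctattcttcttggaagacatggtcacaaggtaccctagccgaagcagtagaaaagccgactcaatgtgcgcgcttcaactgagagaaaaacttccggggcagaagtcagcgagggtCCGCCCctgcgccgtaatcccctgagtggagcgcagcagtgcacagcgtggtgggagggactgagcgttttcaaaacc

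Over the whole RefSeq window of 250 bases before this start, FGF2 had 75.2% GC and FGF5 68.8%, against 44.8% for FGF1 and 55.6% for NUDT6. Among 35116 promoters these values ranked at the percentiles 89.9, 76.6, 21.6 and 43.4. FGF2 held 3 GC boxes in its window, FGF5 held 1 and NUDT6 held 1. FGF1 held no GC box and 1 CCAAT box. A GC box occurred in 42.6% of all promoters and a CCAAT box in 32% of them. Neither a TATA box (TATAAA, in 10.7% of promoters) nor an AP-1 site (TGANTCA, in 6.57%) was matched in these 4 windows. The values differed at some of the other starts. FGF1 had 1 GC box and no CCAAT box at each of 2 further starts, 1 with 60.8% GC and 1 with 47.2% GC and an AP-1 site. The other start of FGF5 had 47.2% GC and 2 TATA boxes, and that of NUDT6 had 54.4% GC and 0 GC boxes. The contrast in base composition therefore describes the outermost starts and does not hold for every start. The matches describe these letters and were not tested for a relation to the fold changes.

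Of the 3′ UTRs of the canonical transcripts, those of FGF1 (3112 bases) and FGF5 (4345 bases) each contained the word GCAACC once, and those of FGF2 (5840 bases), FGFR1 (2485 bases), FGFRL1 (1551 bases) and NUDT6 (251 bases) did not. The word is shown because, over all tested genes with such a UTR, it occurred in 39.3% of the genes called higher, 19.8% of those called lower and 22.5% of the others, and in 23.6% of all. These shares were not adjusted for UTR length. They rest on the calls of these same data, so they give no separate support for a role of the word. The UTRs of FGF1 and FGF5 were both longer than the median of 1376 bases over these genes. Both FGF genes that hold it had a negative fold change, and FGF1 was not called. FGF2, FGFR1 and FGFRL1, which lack the word, had a negative fold change too. Capitals mark the word in the site of FGF1 (chr5:142592795-142592824, minus strand).
FGF1: ttggaagaatcaGCAACCccagcataaaat

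Of the receptors with a tyrosine kinase domain, only FGFR1 was expressed at a level that could be tested. FGFR1 (ENSG00000077782, chromosome 8 from 38400215 to 38468834 on the minus strand), the main FGF receptor of mesenchymal cells, had 258.2 and 207.6 CPM in control and 242.2 and 188.3 CPM in TOP2B knockdown. Replicate 1 was the higher library in both groups, and the groups overlapped. The log2(fold change) was -0.11 (SE 0.16, 95% interval -0.48 to 0.25, adjusted p = 0.715). The sign changed in 2 fits without 1 library, being 0.05 when control replicate 1 was left out and 0.07 when TOP2B knockdown replicate 2 was. Between libraries of the same replicate number the log2 difference was -0.09 and -0.14, and between the others 0.22 and -0.45. No pairing of libraries was assumed. The interval allows a fall to 71.7% or a rise to 119% of the control level. FGFR1 shares 3.05% of its exon bases with genes on the opposite strand. Whether the counts used strand is not given, so reads in those bases are uncertain.

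FGFR4 (ENSG00000160867, chr5:177086905-177098144, plus strand), a receptor best known from liver, was counted with 8 and 10 reads in control and 5 and 3 reads in TOP2B knockdown. Summed over libraries, the rate in TOP2B knockdown was 0.502 times that in control (8 against 18 reads, exact 95% interval 0.189 to 1.21, counting error only). With no filter on counts the log2(fold change) was -0.98 (SE 0.70, adjusted p = 0.584), so a difference was not detectable at this depth. FGFR3 (ENSG00000068078, chr4:1793293-1808872, plus strand), a receptor that restrains bone growth, had 1 read in every library, at or below the limit of 3 counts, and no fold is given. The RefSeq windows before the outermost start of these barely counted genes had 86.8% GC for FGFR3 and 79.6% for FGFR4, and held 8 and 7 GC boxes, while the window of the other FGFR4 start had 57.2% GC and 0 GC boxes.

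FGFRL1 (ENSG00000127418, chr4:1009936-1026898, plus strand), the receptor without a kinase domain, stood at 81.8 and 84.1 CPM in control and at 68.8 and 60.0 CPM in TOP2B knockdown. Both knockdown libraries were lower than both control libraries. The means were 82.9 ± 1.65 and 64.4 ± 6.25 CPM (SD, n = 2 each). The log2(fold change) of -0.36 (SE 0.12, 95% interval -0.64 to -0.09) did not pass the adjustment over all genes (adjusted p = 0.0881), and it ranged from -0.46 to -0.26 with 1 library left out.

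NUDT6 (ENSG00000170917) lies at chr4:122888697-122922968 on the minus strand and runs into the 3′ end of FGF2. The 2 genes overlap over 9540 bases and share 804 exon bases in 2 stretches, chr4:122892575-122893225 (651 bases) and chr4:122897526-122897678 (153 bases). All 804 bases belong to the UTR of the canonical FGF2 transcript and none to its coding sequence, while 450 of them are coding and 254 are UTR in the canonical NUDT6 transcript. They make up 11.8% of the exon bases of FGF2 and 12.2% of those of NUDT6. Whether the counts used strand is not given in the sources used here, and without strand a read in these stretches cannot be assigned to either gene. The uncertainty is not limited to these stretches. NUDT6 also has exons 62.015 to 62.275 kb and 63.289 to 63.404 kb from the FGF2 gene start, inside an FGF2 intron. Without strand, reads of unspliced FGF2 RNA there would be counted for NUDT6. FGF2 had 19.3 to 45.5 reads for each read of NUDT6, so the NUDT6 count is the more exposed, and the size of this was not tested.

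NUDT6 was counted with 110 and 81 reads in control and 111 and 98 reads in TOP2B knockdown, which gave 4.59 and 3.55 CPM against 5.24 and 4.86 CPM. Both knockdown libraries lay above both control libraries, by as little as 0.08 on the log2 scale for the nearest pair. The means were 4.07 ± 0.735 and 5.05 ± 0.267 CPM (SD, n = 2 each), and the log2(fold change) was 0.31 (SE 0.21, 95% interval -0.17 to 0.79, adjusted p = 0.406). NUDT6 was not called, and the interval includes both no change and a rise to 173% of control. The signs of FGF2 and NUDT6 were opposite, but only FGF2 passed the test and the difference between them was not tested.

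For each read of NUDT6 there were 30.3 and 45.5 reads of FGF2 in the control libraries and 19.3 and 23.3 in the TOP2B knockdown libraries. With both genes scaled to the length of the exons that they do not share, the ratio of their levels was 29.2 and 43.8 in control and 18.6 and 22.4 in TOP2B knockdown. Scaled to the length of all exons, the mean ratio was 36.7 ± 10.4 in control and 20.6 ± 2.7 in TOP2B knockdown (SD, n = 2 each). Scaled to the length of the canonical transcripts, which is far shorter for NUDT6 than all its exons, the ratio was 5.59 and 8.39 in control and 3.56 and 4.29 in TOP2B knockdown, so that its size depends on the length used. Each scaling multiplies the ratio of every library by the same factor, so the order of the libraries cannot differ between scales. Both knockdown libraries had the lower ratio, which follows from their lower FGF2 and higher NUDT6 levels and is no separate result. NUDT6 contributed 3.19% (95% Wilson interval 2.66 to 3.84) and 2.15% (1.73 to 2.67) of the reads of the gene pair in control, and 4.93% (4.11 to 5.9) and 4.12% (3.39 to 5) in TOP2B knockdown. The intervals cover counting error only. The share restates the same counts, so both knockdown libraries had the higher share. The 2 control libraries differed from each other by more than the 2 knockdown libraries did.

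**Figure D3:**
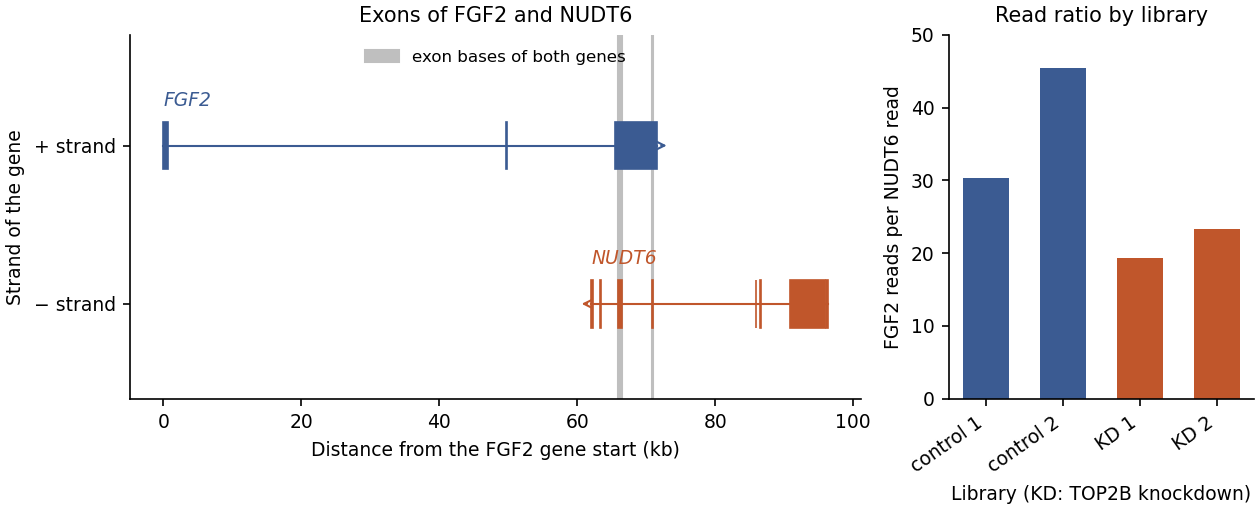
Left, exons (boxes) of FGF2 on the plus strand and NUDT6 on the minus strand against the distance from the FGF2 gene start in kb, with grey bands for the 804 exon bases of both genes. Right, reads of FGF2 per read of NUDT6 in each library (KD, TOP2B knockdown), which were 30.3 and 45.5 in control and 19.3 and 23.3 in TOP2B knockdown.

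Levels were compared between genes as CPM per kilobase of annotated exon. In control the order was FGF5 (33.1 ± 0.81), FGF2 (22.1 ± 2.33), FGFRL1 (19.1 ± 0.38), FGFR1 (13.5 ± 2.08), FGF1 (6.36 ± 1.66), NUDT6 (0.619 ± 0.112), FGFR4 (0.0803) and FGFR3 (0.00883), each the mean of 2 libraries. No neighbours in this order overlapped between libraries in control. In TOP2B knockdown the order was the same, with 21.8 ± 1.29 for FGF5 and 15.7 ± 1.25 for FGF2, but FGFRL1 (14.8 ± 1.44) overlapped with FGF2 and with FGFR1 (12.5 ± 2.22). The order of the upper genes depends on the length used. Per kilobase of the canonical transcript, FGFR1 stood first in control at 40.9 ± 6.28 and overlapped with FGF5 at 37.2 ± 0.909, followed by FGFRL1 at 24.3 ± 0.484, which overlapped with FGF2 at 22.6 ± 2.38.

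To see the 8 genes within their pathway, 87 further genes were examined in 8 lists. The lists were written from general knowledge, but with earlier results of these data known. Of these, 55 were tested, 3 were called higher (5.45%, against 6.66% of all genes) and 7 lower (12.7%, against 4.18%), and the median log2(fold change) was 0.04. None of the 15 other FGF ligands had enough reads to be tested, 9 of them being at 0 in every library and the highest at 10 reads. FGFR2 and the Klotho coreceptors KL and KLB likewise had at most 11 reads. FGF14, an intracellular FGF homologous factor and the only one of 4 with enough reads to be tested, had a log2(fold change) of -0.08 (adjusted p = 0.921).

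Among 7 carriers and export partners of FGFs, 5 were tested. FIBP, a protein that binds intracellular FGF1, rose from 64.3 and 69.0 CPM to 89.5 and 97.3 CPM (log2(fold change) 0.49, adjusted p = 0.0288). SYT1, a calcium sensor linked to FGF1 release, fell from 67.7 and 59.2 CPM to 48.8 and 44.1 CPM (-0.45, adjusted p = 0.0493), a call lost in all 4 fits without 1 library, without normalization factors (adjusted p = 0.0516) and with only genes of a mean of at least 100 counts (0.061). S100A13, which accompanies FGF1 during export, gave 0.45 (adjusted p = 0.114).

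Heparan sulfate proteoglycans, which hold FGFs at the cell surface and in the matrix, changed in both directions. Of 9 tested core proteins 2 rose (22.2%, against 6.66% of all genes) and 2 fell (22.2%, against 4.18%) by edgeR. DESeq2 called 3 higher and 2 lower, and at an unadjusted p below 0.05 edgeR also gave 3 higher and 2 lower. AGRN, the basement membrane proteoglycan agrin, rose from 409.0 and 341.1 CPM to 640.3 and 582.5 CPM (log2(fold change) 0.71, adjusted p = 0.0177). HSPG2, which encodes perlecan, rose from 109.2 and 96.5 CPM to 171.4 and 145.8 CPM (0.62, adjusted p = 0.0173). The cell surface proteoglycans SDC2 (log2(fold change) -0.65, adjusted p = 0.0133) and GPC6 (-1.12, adjusted p = 0.00864) fell. Another cell surface proteoglycan, SDC4, went the other way without being called by edgeR (0.42, adjusted p = 0.0516). The core proteins with the most reads among those not called, SDC1 (-0.01, adjusted p = 0.967) and GPC1 (0.01, adjusted p = 0.983), differed by less than the spread between replicates.

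Of 14 tested enzymes that build or trim heparan sulfate, 0 rose (against 6.66% of all genes) and 2 fell (14.3%, against 4.18%) by edgeR. At an unadjusted p below 0.05, 1 gene was higher, and DESeq2 called 1 higher. EXTL2, a glycosyltransferase, fell by 0.82 on the log2 scale (adjusted p = 0.0137). HS3ST3B1, which adds 3-O-sulfate groups, fell by 1.24 (adjusted p = 0.0128), from 6.22 and 5.44 CPM to 2.97 and 1.93 CPM. NDST1 (0.15, adjusted p = 0.555) and EXT1 (0.18, adjusted p = 0.44), which act in chain synthesis and modification, were not called.

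The 14 adaptors and effectors downstream of the receptors were all tested. None was called by edgeR, against 6.66% of all genes called higher and 4.18% called lower. At an unadjusted p below 0.05, 1 was higher and 2 were lower, and DESeq2 called 1 higher and 0 lower. SHC1 (0.04, adjusted p = 0.901) and PTPN11 (0.07, adjusted p = 0.792) had the most reads. Among the 12 inhibitors and transcriptional targets of FGF signalling, 2 fell by edgeR (16.7%, against 4.18% of all genes) and none rose (against 6.66%). DESeq2 also called 2 lower and none higher, and 1 was higher at an unadjusted p below 0.05. The median log2(fold change) of the 12 was -0.03. ETV1, an ETS transcription factor, went from 66.1 and 65.4 CPM to 45.2 and 43.5 CPM (log2(fold change) -0.57, adjusted p = 0.0135). SPRED3, an inhibitor of MAPK signalling, went from 39.1 and 40.4 CPM to 28.5 and 27.4 CPM (-0.51, adjusted p = 0.0254). Their relatives ETV5 (-0.09, adjusted p = 0.667) and SPRED1 (0.13, adjusted p = 0.512) were not called. Of the 10 called pathway genes, 3 (GPC6, EXTL2 and HS3ST3B1) were called in every fit without 1 library.

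**Figure D4:**
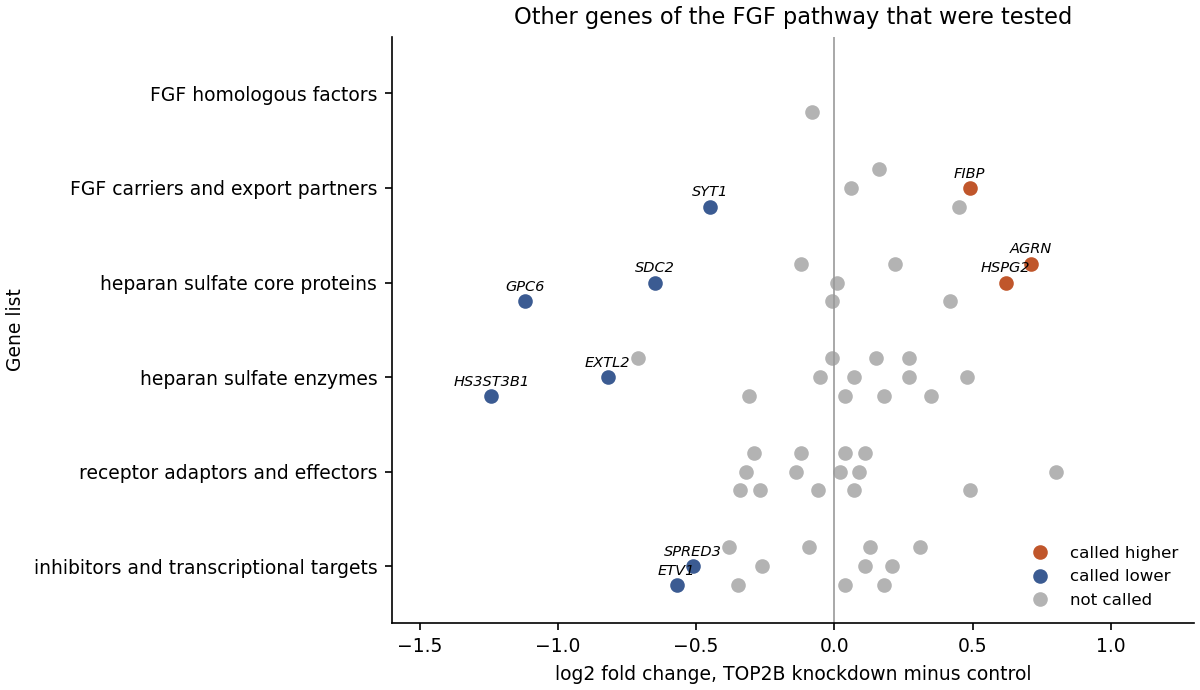
Log2 fold change (TOP2B knockdown minus control) of the 55 tested genes of the FGF pathway, 1 point a gene, in rows by list; vertical offsets within a row only separate the points. Calls lie on both sides of 0 among the carriers and the heparan sulfate core proteins, and no adaptor was called.

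The genes next to the called ligands were examined to place their fall in its genomic surroundings. CFAP299, a gene that encodes a cilia and flagella associated protein, overlaps FGF5 on the same strand and shares 136 exon bases with it (2.28% of the exon bases of FGF5). It went from 37 and 31 reads to 12 and 12 reads, a log2(fold change) of -1.32 (SE 0.36, adjusted p = 0.0451), and was called lower, though in none of the 4 fits without 1 library. Its counts are uncertain because of the shared exon bases. The nearest tested genes that do not overlap FGF5 were not called, PRDM8 at 62.3 kb with -0.03 (adjusted p = 0.911) and PRKG2 at 750.7 kb with -1.01 (adjusted p = 0.137). Beside FGF2, BBS12 at 81.7 kb gave -0.31 (adjusted p = 0.312) and SPATA5 at 24.8 kb, beyond NUDT6, gave 0.16 (adjusted p = 0.535).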

How the data were processed

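RNA-seq libraries of 2 control and 2 TOP2B knockdown samples were used. Per the submitters' processing notes and methods, the authors checked single-end reads with FastQC 0.11.6, aligned them to GRCh38 with STAR 2.5.4a and took gene counts with Gencode v24. The deposited values are raw counts per gene, without normalization. A repeat of the 4 columns, equal in every value, was left out (4 columns). The methods set STAR's signal output to unstranded, the headers mention stranded paired-end data, and whether the gene counts used strand is not given in the sources used here.

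The 15356 of 60725 genes that reached 10 counts in 2 or more libraries were compared with edgeR 4.0.16 in R 4.3.3 (quasi-likelihood test, TMM, a model of condition alone, Benjamini-Hochberg adjustment) and called at an adjusted p below 0.05. Alternatives included DESeq2 1.42.0, other scalings and filters, and fits without each library. Scripts were tested on simulated data. Exon lengths, overlaps and neighbours were taken from GENCODE v44 (GRCh38), where 98.9% of tested genes were found by ID. RefSeq start sites gave promoters, of which bases inside the gene model were not printed.

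The 8 genes, the pathway lists and the tests were chosen with earlier results of these data known. Named besides the 8 genes were TOP2B, SDC4, every called gene of the lists, the 2 genes of highest mean CPM not called in each list, and the nearest tested genes of each called FGF gene. Of the genes so chosen, 1 is not reported here. With 2 libraries a group, p-values measure the spread between these libraries only.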

Additional observations from a re-analysis of the deposited data

How the results depend on the processing

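With all libraries, FGF2 and FGF5 were called lower in all 6 alternatives (adjusted p up to 0.0452 and 0.0204). Leaving out 1 library gave between 0 and 3 FGF genes called lower, with FGF1 among them in 2 of the 4 fits, between 0 and 4 pathway genes called higher and between 3 and 6 called lower. A lone library is then assumed to vary like the other group. No FGF gene was called higher under any alternative. For the pathway genes called higher, DESeq2 gave 6 and no filter on counts also 6, against 3. With the replicate number as a replicate block, 6786 of the genes tested (44.2%) were called, against 1665, with 5 FGF genes lower (besides FGF2 and FGF5 these were FGF1, adjusted p = 8.68e-05, FGFRL1, 0.000237, and FGFR1, 0.045), 16 pathway genes higher and 11 lower. Libraries of the same number deviated from their group means together (correlation 0.479 over 15356 genes). With only 2 pairs and no label for what they share besides this number, no pairing was assumed. The intervals given above therefore take no account of it. The sign of 7 uncalled genes changed when 1 library was left out. Their log2 fold changes ran from -0.30 to 0.07 for FGFR1, from -0.33 to 0.25 for FGF14, from -0.17 to 0.14 for SDC1, from -0.06 to 0.09 for GPC1, from -0.12 to 0.22 for SHC1, from -0.10 to 0.05 for PRDM8 and from -0.01 to 0.33 for SPATA5. GPC1 was also -0.00 with DESeq2 size factors and -0.01 with DESeq2. Per kilobase of canonical transcript, control levels were 37.2 for FGF5, 24.3 for FGFRL1, 40.9 for FGFR1, 8.45 for FGF1, 3.32 for NUDT6, 0.125 for FGFR4 and 0.00995 for FGFR3, in CPM. The mean ratio of FGF2 to NUDT6 moved by less than its spread with unshared exon length, and on the canonical length, an alternative chosen after seeing the data, it was 6.99 in control and 3.93 in TOP2B knockdown, against 36.7 and 20.6. Beyond the alternatives' own construction, the cause of these changes was not tested. Depth limits FGFR3, FGFR4 and NUDT6, and 2 libraries a group limit every interval.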

Other observations

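The surroundings of FGF1, which was not called, were viewed after their values were known. SPRY4-AS1, a long noncoding RNA gene that overlaps FGF1 on the opposite strand without shared exon bases, had 23 and 45 reads in control and 69 and 53 reads in TOP2B knockdown. Both knockdown libraries were above both control libraries, the log2 fold change was 1.01 (SE 0.34, 95% interval 0.24 to 1.78), and edgeR did not call it (adjusted p = 0.0938, range 0.00465 to 0.374 over the alternatives). It was called without control replicate 2 (adjusted p = 0.00465), without TOP2B knockdown replicate 2 (0.0299), with no filter on counts (0.0066) and with the replicate block (0.00886). SPRY4, a feedback inhibitor of FGF signalling 265.7 kb from FGF1, stood at 30.3 and 34.2 CPM in control and 26.8 and 23.7 CPM in TOP2B knockdown, with a log2 fold change of -0.35 (SE 0.13, adjusted p = 0.124, range 0.00396 to 0.534). The lowest adjusted p of SPRY4 came from the fit with the replicate block. Neither gene was called with all libraries and condition as the only term at the count filter used, and their differences had opposite signs.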
